A study of Bassia scoparia with 27 samples.

Results

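The response of the kochia (Bassia scoparia) line J01-S at 10 h after treatment (HAT) with fluroxypyr was described from 4 of the 27 RNA-seq libraries of the series. The libraries at 10 HAT are numbered 2 and 4 and the untreated libraries 1 and 4, and these numbers are taken here as plant numbers. J01-S is a field population that the herbicide controls and not an inbred line, so its plants may differ genetically. All plants were sprayed with water and sampled for the untreated time point, and the same plants were sprayed with fluroxypyr on the following day. RNA was extracted in batches that are not identified among the libraries. The tissue was young leaf and meristem tissue of vegetative plants, except that 3 J01-S plants, which are not identified among the libraries, had begun to flower. No untreated tissue was collected at 10 h, so the herbicide, the time of day and the earlier harvest and handling cannot be told apart. The other lines used below are 9425, an inbred dicamba-resistant line with a mutation in the auxin repressor gene IAA16 that is susceptible to fluroxypyr, and Flur-R, a line selected for fluroxypyr resistance over several generations. For both, libraries from 10 HAT and from the untreated time point were compared, treated and sampled in the same way. Their 3 HAT libraries entered the estimate of the spread and the check of the line.

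A transcript was included if its normalized count was 10 or more in at least 2 of the 4 J01-S libraries. This kept 24905 of 45517 transcripts. A transcript below this minimum in both libraries of a group could pass only through the other group. Only a difference toward that other group could then be called. Values are the authors' normalized counts, and differences are on the scale of log2(normalized count + 1), 10 HAT minus untreated. A transcript was called higher or lower if the Benjamini-Hochberg adjusted p of limma was below 0.05, the log2 difference was over 0.5 in size and the libraries of the groups did not overlap. With 2 libraries against 2, an exact two-sided permutation test cannot go below p = 0.333, so limma took the spread of each transcript from 25 libraries of the series. The main fit had no plant term and treated the libraries as independent, although plants were sampled repeatedly and plant 4 is in both groups. The correlation within a plant was estimated at 0.482 over the 25 libraries. The p-values thus mix the spread between plants with that between samples of 1 plant.

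Fluroxypyr is a synthetic auxin. In plants, auxin brings its receptors and the Aux/IAA repressors together, the repressors are degraded, and auxin response factors then switch on target genes. Among these targets are the Aux/IAA genes themselves, GH3 genes, whose enzymes join auxin to amino acids, and ACS genes, which encode the rate-limiting enzyme of ethylene synthesis. Ethylene and abscisic acid then follow in the known sequence of injury by auxin herbicides, which ends in reduced photosynthesis, arrested growth and death of susceptible broadleaf plants.

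The line of each library was checked on 1423 transcripts whose levels in J01-S and 9425 did not overlap in the untreated and 3 HAT libraries and differed by a log2 value of at least 3. In the untreated and 3 HAT libraries of J01-S, 3.30 to 4.43% of these transcripts lay on the 9425 side of the midpoint. In the libraries at 10 HAT the share was 29.6% for plant 2 and 6.32% for plant 4. The third J01-S library at 10 HAT, from plant 3, had 96.1% on the 9425 side and was left out. The 9425 library of plant 3 at 10 HAT had 39.3% on that side, against 93.5 to 98.0% for the other 9425 libraries at 10 HAT, and was also left out. The libraries of Flur-R, which had no part in choosing these transcripts, had 38.9 to 64.5% on that side. The value of 39.3% lies in this range and does not assign the library to J01-S. The low shares of the untreated and 3 HAT libraries of J01-S follow from the selection of the line-parting transcripts. Plant 4 had a part in that selection and plant 2 had none. The share of plant 2 therefore cannot tell an unusual plant from ordinary differences between plants of J01-S. Counts are given with and without plant 2. The line-parting transcripts tested numbered 912, of which 13 were called higher and 43 lower. Over all transcripts tested, 6.79% were called higher and 9.48% lower.

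**Figure D1:**
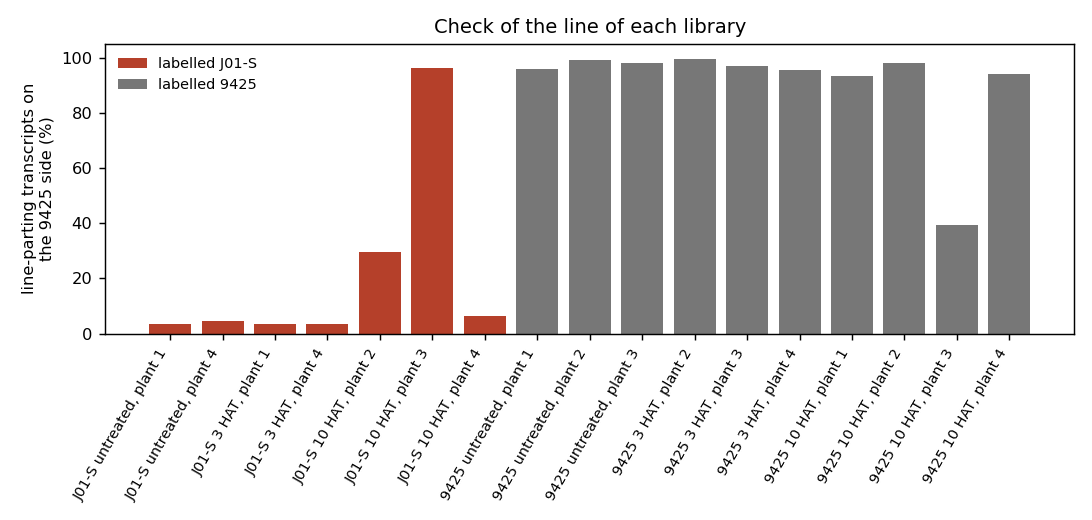
Share of the 1423 line-parting transcripts that lie on the 9425 side of the midpoint between the lines, in percent, 1 bar per library, in red for libraries labelled J01-S and in grey for those labelled 9425. The J01-S library of plant 3 at 10 HAT reaches 96.1% and that of plant 2 reaches 29.6%, while the other J01-S libraries are at 6.32% or below.

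At 10 HAT, 1691 transcripts of 1589 loci were higher and 2361 transcripts of 2241 loci were lower than in untreated J01-S, which is 6.79% and 9.48% of the transcripts tested. Groups without overlap were far more frequent, with 28.4% of transcripts higher and 26.6% lower in both libraries at 10 HAT, so lack of overlap alone is not read as a change. The median log2 difference was 1.42 among the transcripts called higher, -1.70 among those called lower and 0.05 over all tested. Differences of more than 4 in log2 size were found for 183 transcripts called higher and 144 called lower. Without plant 2 the counts were 989 higher and 1673 lower, without the 10 HAT library of plant 4 they were 888 and 1666, and without the untreated library of plant 1 they were 794 and 1252. With the plant as a random effect they were 2663 and 3360. With only the J01-S libraries of these groups in the fit, they were 335 and 694.

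The sum of normalized counts, in mega-counts (M), was 53.4 and 61.3 M at 10 HAT, against 75.2 and 72.7 M in untreated J01-S. Transcripts called lower held 12.6 and 12.7% of all counts at 10 HAT, against 40.9 and 39.6% in the untreated libraries. Those called higher held 18.8 and 18.3% at 10 HAT, against 4.92 and 4.82%. When every library was rescaled to the same total, the median log2 difference over all transcripts became 0.41 and the calls became 4011 higher and 1404 lower, so that the share of higher calls changed to 74.1%, against 41.7% on the deposited scale. On that scale 1691 of the calls higher and 1404 of the calls lower were the same transcripts as before. The balance of higher and lower calls therefore depends on the scale. No called transcript named below changed its sign between the scales, and those that lost their call are given. In bulk tissue, fewer cells of a type and less RNA per cell cannot be told apart.

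**Figure D2:**
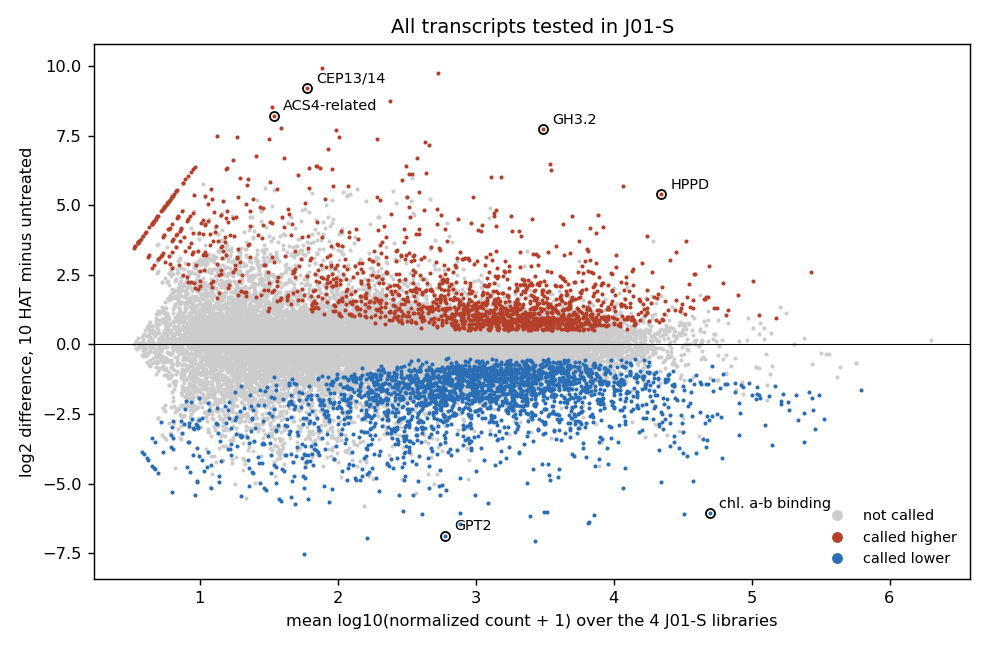
Log2 difference of each of the 24905 transcripts tested, J01-S 10 HAT minus untreated, against its mean log10(normalized count + 1) over the 4 libraries. Red points are the 1691 transcripts called higher, blue points the 2361 called lower and grey points those not called. GH3.2 (7.73) and HPPD (5.40) combine a large difference with a high level, and the chlorophyll a-b binding transcript (-6.07) is the most abundant of the marked transcripts before treatment.

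The transcripts named below were taken from lists of known roles, from the largest called differences among transcripts with a description, and from a few undescribed transcripts. With only the groups compared in the fit, 37 of them lost a call and 2 gained one. These losses are not repeated transcript by transcript. They include ERF13-related (limma adjusted p = 0.0914), ELF4 (0.052), the pectinesterase (0.0782) and the PLC-like phosphodiesterase (0.0767). Descriptions come from the study's tables, whose entries were partly chosen on these samples, so a direction within a list is not independent evidence. Of the 118 list members tested, out of 123, 47 were called higher and 36 lower. Over all transcripts tested, 6.79% were called higher and 9.48% lower. These shares are the background for the count of every list below. Of these 83 calls, 65 were kept without plant 2, 55 were kept whichever of the 4 libraries was left out, and 49 were kept with only the groups compared in the fit.

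Of the 10 auxin transcripts, 6 were higher at 10 HAT, 1 was lower and 3 were not called. GH3.2 (Bs.00g477580.m01, chromosome 6, 3114613 to 3118346, 4 exons) inactivates auxin by joining it to amino acids. It had 43818 and 45578 normalized counts at 10 HAT, against 463 and 95 in untreated J01-S. The libraries at 10 HAT were close to each other, while the untreated libraries differed severalfold, and the difference of the means was 7.73 ± 0.88 on the log2 scale (SE, limma adjusted p = 9.92e-06). This was the largest difference of the auxin list, and the median of the 10 members was 1.10, against 0.05 over all transcripts tested.

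The 3 Aux/IAA repressors were higher in both libraries. IAA15 (Bs.00g301680.m01, chromosome 9, 5126719 to 5127795) had 19370 and 21707 normalized counts at 10 HAT, against 1968 and 1230 in untreated J01-S, a log2 difference of 3.72 ± 0.32 (SE, limma adjusted p = 6.61e-07). IAA29 (Bs.00g048560.m01, chromosome 8, 87090874 to 87092782) had 21530 and 20685, against 2390 and 1583 (3.44 ± 0.40, adjusted p = 1.3e-05). The rise of the IAA4-like repressor (Bs.00g107340.m01) was smaller, with 4342 and 5297 at 10 HAT, against 1432 and 938 untreated (2.05 ± 0.46, adjusted p = 0.00449). All calls of GH3.2 and of the 3 repressors were kept in every alternative fit.

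Transport and response factors moved less. A PIN auxin efflux carrier (Bs.00g190770, contig unscaffolded1) was called higher in both of its annotated transcripts, which share reads. Its first transcript had 28122 and 16966 normalized counts at 10 HAT, against 9618 and 11068 untreated, with log2 differences of 1.08 and 1.12 for the transcripts (limma adjusted p = 0.0181 and 0.0152). These calls were lost without plant 2 (adjusted p = 0.213 and 0.203), without the untreated library of plant 1 (0.127 and 0.111) and with the plant as a fixed block (0.213 and 0.211). The auxin response factors ARF19/7 and ARF3 and the influx carrier AUX/LAX had log2 differences of -0.14, -0.33 and 0.12 with overlapping libraries. ARF19/7 and ARF3 turned to small positive values on the scale of equal totals. The transcript described only as auxin inducible (Bs.00g528960.m01, chromosome 6, 95685824 to 95686704) went the other way, with 43 and 107 normalized counts at 10 HAT, against 2256 and 1907 untreated (-4.91 ± 0.63, adjusted p = 3.3e-05).

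**Figure D3:**
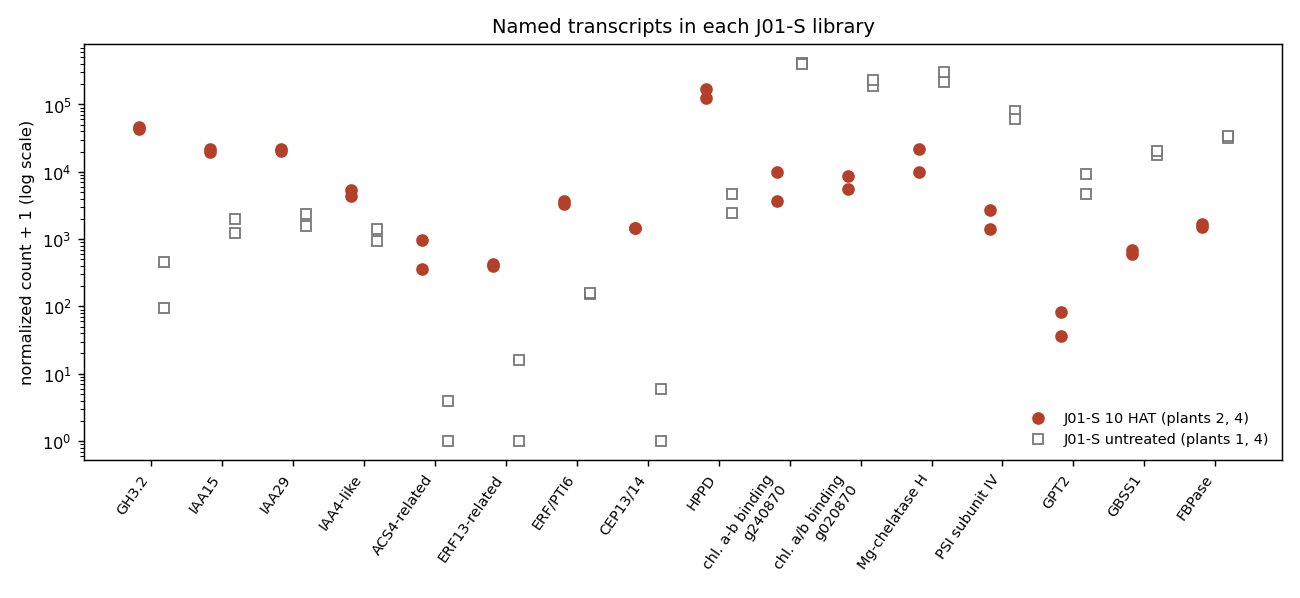
Normalized counts + 1, on a log scale, of 16 named transcripts in each J01-S library, with red circles for 10 HAT (plants 2 and 4) on the left and open squares for untreated (plants 1 and 4) on the right. The groups do not overlap for any of the 16. CEP13/14 has 1450 and 1482 at 10 HAT, against 5 and 0, and the chlorophyll a-b binding transcript has 3741 and 9825, against 414710 and 401035.

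The 4 ethylene and AP2/ERF members that passed the count filter were higher at 10 HAT, while members low in both groups could not be tested. The ACS4-related transcript (Bs.00g478760.m01, chromosome 6, 4394631 to 4404814), whose enzyme makes the ethylene precursor, had 974 and 357 normalized counts at 10 HAT, against 3 and 0 untreated. Its log2 difference of 8.21 ± 0.89 (SE, limma adjusted p = 6.53e-06) rests on untreated values near 0. It passed the count filter only through its 10 HAT libraries, so only a rise could be called for it. The ERF13-related factor had 401 and 420 at 10 HAT, against 15 and 0 (6.68 ± 1.04, adjusted p = 0.000224), and the factor described as ERF/PTI6 had 3356 and 3745, against 151 and 156 (4.52 ± 0.71, adjusted p = 0.000266). Both are transcription factors with an AP2 domain.

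The fourth, the ERF Bs.00g418990.m01, had 110 and 114 normalized counts at 10 HAT, against 39 and 10 untreated (2.43, limma adjusted p = 0.0211). Its call was lost without plant 2 (adjusted p = 0.0815), without the 10 HAT library of plant 4 (0.0908) and without the untreated library of plant 4, where the difference was smaller (0.22). It was also lost with all 27 libraries used as labelled (0.0518). The DREB1A-related factors of cold and drought responses were below the count minimum. One of them, Bs.00g419000.m01, lies next to the ERF on chromosome 5. It had 8 and 9 at 10 HAT and was listed at 0 in both untreated libraries, while its 3 HAT libraries had 864 and 659.

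Of the 6 abscisic acid transcripts tested, 3 were higher, none was lower and 3 were not called, with a median of 1.97. Both ABCG40 transporters, which import abscisic acid in Arabidopsis and are neighbours on chromosome 9, were higher. Bs.00g301780.m01 had 5600 and 2853 normalized counts at 10 HAT, against 752 and 570 (2.61, limma adjusted p = 0.0103), and Bs.00g301770.m01 had 651 and 190, against 65 and 37 (2.82, adjusted p = 0.0297). Without plant 2 the adjusted p-values were 0.106 and 0.257, and without the untreated library of plant 4 they were 0.0629 and 0.144. Bs.00g301770.m01 also lost its call without the untreated library of plant 1 (0.0729) and with the plant as a fixed block (0.0605).

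A protein phosphatase 2C (Bs.00g430680.m01), of a family that holds negative regulators of the abscisic acid pathway, had 154 and 144 normalized counts at 10 HAT, against 7 and 2 untreated (4.94, limma adjusted p = 0.0282). Its adjusted p was 0.0689 to 0.141 when any of the 4 libraries was left out, being 0.108 without plant 2 and 0.103 without the 10 HAT library of plant 4, and it was 0.059 with 8 added in place of 1. The NCED2 transcripts, for the committed step of abscisic acid synthesis, were not called, with 4589 and 7128 at 10 HAT, against 2073 and 3716, for Bs.00g059470.m01. The other, Bs.00g024060.m01, had 184 and 489, against 696 and 741. NCED6 was below the count minimum, with 4 and 19, against 2 and 0.

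Among all described transcripts, the largest rise was that of the precursor of the CEP13/CEP14 signalling peptides (Bs.00g016210.m01, chromosome 8, 20258286 to 20258640, 1 exon). It had 1450 and 1482 normalized counts at 10 HAT, against 5 and 0 untreated (log2 difference 9.23 ± 0.81, SE, limma adjusted p = 7.78e-07). Others of the largest rises, besides those of ACS4 and GH3.2, included that of a proteinase inhibitor of family I13 (Bs.00g359220.m02), with 5462 and 4471, against 18 and 6 (8.74, adjusted p = 0.000146). A D-arabinono-1,4-lactone oxidase (Bs.00g218880.m01) had 594 and 548, against 6 and 0 (7.76, adjusted p = 2.36e-06), and a TIP3-1-related aquaporin (Bs.00g239120.m01), a water channel of the vacuole membrane, had 1590 and 1234, against 8 and 4 (7.71, adjusted p = 9.25e-07). A secoisolariciresinol dehydrogenase (Bs.00g291860.m01), whose family acts in lignan synthesis, had 116 and 274 at 10 HAT and was listed at 0 in both untreated libraries (adjusted p = 9.92e-06).

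Except for GH3.2, untreated J01-S was at 18 or below in each of these, so the size of the log2 difference depends on the value added before the log. With 8 in place of 1, the difference of the secoisolariciresinol dehydrogenase had a size of 4.55 and kept its call. In all, 55 of the transcripts called higher were listed at 0 in both untreated libraries, and 9 of those called lower were listed at 0 in both libraries at 10 HAT. Such transcripts passed the count filter only through the other group, which set their direction. The largest differences without a description were those of Bs.00g261150.m01 (chromosome 7, 25697671 to 25699011), with 1963 and 2855, against 2 and 1 (9.92, limma adjusted p = 0.000392), and of Bs.00g122020.m01 (chromosome 4, 102767275 to 102768132), with 14427 and 17133, against 32 and 9 (9.76, adjusted p = 1.47e-05).

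Defence and stress transcripts moved both ways, with 6 higher and 3 lower of 11. A Bet v I/major latex transcript (Bs.00g261130.m01), close to the undescribed Bs.00g261150.m01 on chromosome 7, had 3556 and 8250 normalized counts at 10 HAT, against 76 and 18 untreated (7.15, limma adjusted p = 0.00151). Another of this family (Bs.00g217150.m01) had 1009 and 1456, against 188 and 5 (5.17, adjusted p = 0.00426), and its difference fell to 2.68 without the untreated library of plant 4 (adjusted p = 0.0905). Metacaspase-4, a cysteine protease of plant cell death, had 165 and 176 at 10 HAT, against 2 and 0 (6.63, or 4.32 with 8 added in place of 1, adjusted p = 2.99e-05). Peroxidases oxidise a wide range of substrates with hydrogen peroxide, and both on the list were called.

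The peroxidase Bs.00g431740.m01 had 2555 and 2022 normalized counts at 10 HAT, against 127 and 10 untreated (limma adjusted p = 0.00776), and lost its call without the untreated library of plant 4 (0.105). The peroxidase Bs.00g275080.m01 had 355 and 201, against 1 and 2 (adjusted p = 0.00917), and lost its call without plant 2 (0.0621) or the untreated library of plant 1 (0.0679). The members that fell were a Kunitz proteinase inhibitor, with 45 and 149 at 10 HAT, against 5164 and 10050 (-6.44, adjusted p = 0.000442), an aerolysin-like toxin domain transcript, with 338 and 447, against 21926 and 28773 (-6.01, adjusted p = 0.000599), and a proteinase inhibitor of family I9. This last one had 3 and 46, against 310 and 695 (-5.08, adjusted p = 0.00392), and lost its call without plant 2, where the difference was -3.31 (0.0871), and with the plant as a fixed block (0.0633). Proteinase inhibitors were thus found among both the largest rises and the largest falls.

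Lipoxygenases add oxygen to polyunsaturated fatty acids, the first step toward jasmonates and other oxylipins. The 3 lipoxygenase transcripts that follow each other on chromosome 4, between 93594443 and 93665361, were higher. Bs.00g112710.m01 had 39305 and 23682 normalized counts at 10 HAT, against 535 and 298 untreated (6.25, limma adjusted p = 0.000337). The 9S-lipoxygenase 5 transcript Bs.00g112660.m01 had 14673 and 7317, against 258 and 101 (5.99, adjusted p = 0.00112), and Bs.00g112620.m01 had 795 and 504, against 6 and 7 (6.40, adjusted p = 0.000213). Reads of one may be counted for another, as these are neighbouring copies of a family, and the split of the level among them is uncertain. A lipoxygenase elsewhere on the chromosome, Bs.00g124870.m01, was not called, with 66 and 180, against 299 and 646. Hexenol acetyltransferase, which forms a leaf volatile ester, fell to 8 and 15 at 10 HAT, against 1041 and 358 (-5.67, adjusted p = 0.0028).

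Of 8 transcription factors in the further list, 6 were higher and none lower. The AT-hook factors annotated as AHL27 are neighbours on chromosome 1. Bs.00g176460.m01 had 1094 and 856 normalized counts at 10 HAT, against 7 and 6 untreated (7.02, limma adjusted p = 0.00183), and Bs.00g176480.m01 had 263 and 231, against 1 and 0 (7.45, or 4.91 with 8 added, adjusted p = 0.000899). The NAC10-related factor had 9732 and 8135, against 496 and 264 (4.62 ± 0.56, SE, adjusted p = 1.88e-05), and a second NAC factor had 7150 and 9431, against 1196 and 255 (3.89, adjusted p = 0.00169). A WRKY factor (Bs.00g020740.m01) had 393 and 461, against 12 and 2 (6.09, adjusted p = 0.0014). A MADS-box factor had 103 and 28, against 7 and 4 (3.12, adjusted p = 0.0026), and lost its call without plant 2 (0.0585).

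All 4 clock and light transcripts, of 3 loci, were higher. COR27 (Bs.00g168520, chromosome 1), a cold-regulated protein of the clock in Arabidopsis, had 3138 and 2579 normalized counts at 10 HAT, against 60 and 27 untreated, for its first transcript (6.11 ± 0.60, SE, limma adjusted p = 2.36e-06). ELF4, part of the evening complex in Arabidopsis, had 916 and 1616, against 62 and 14 (5.31, adjusted p = 0.00091). The B-box protein BBX26 had 7333 and 7747, against 506 and 390 (4.08, adjusted p = 2.44e-05). Transcripts of clock genes change through the day in untreated plants, and the hour of the day of the compared harvests was not matched by an untreated library.

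The 4 amino acid breakdown transcripts were all higher. HPPD (Bs.00g422990.m01, chromosome 2, 526478 to 529996), an enzyme of tyrosine breakdown and plastoquinone synthesis, had 123712 and 167884 normalized counts at 10 HAT, against 4759 and 2441 untreated (5.40 ± 0.44, SE, limma adjusted p = 3.45e-07). Cystathionine gamma-lyase had 85000 and 83180, against 2702 and 968 (5.70, adjusted p = 0.000447). The 2-oxoisovalerate dehydrogenase, of branched-chain amino acid breakdown, had 27774 and 31719, against 3225 and 1091 (3.98, adjusted p = 2.03e-05), and alanine dehydrogenase had 8098 and 8880, against 842 and 299 (4.08, adjusted p = 1.47e-05). None of the 4 lost its call in any alternative fit.

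**Figure D4:**
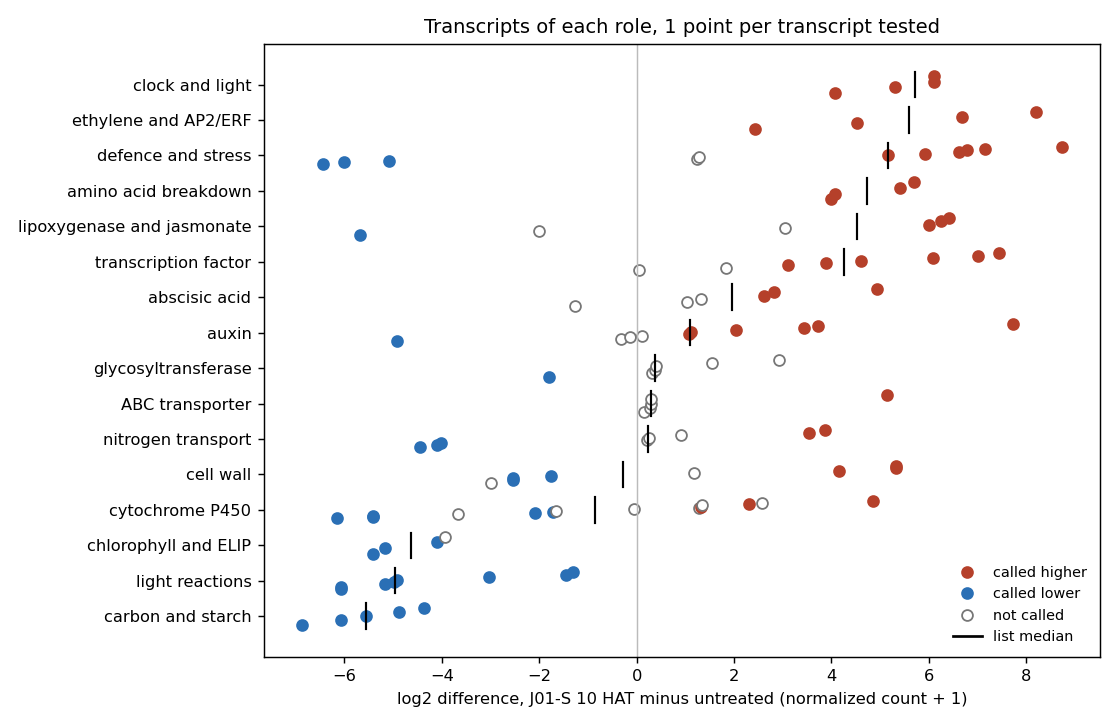
Log2 difference, J01-S 10 HAT minus untreated, of the tested members of each list with at least 4 of them, 1 point per transcript. Red points were called higher, blue points called lower and open points not called, and the black bar is the list median. The medians run from -5.55 for carbon and starch and -4.96 for the light reactions to 5.71 for clock and light.

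All 8 light reaction transcripts, of 7 loci, were lower at 10 HAT, with a median of -4.96. The chlorophyll a-b binding transcript Bs.00g240870.m01 (chromosome 7, 1525280 to 1526083, 1 exon), of the light-harvesting antenna, had 3741 and 9825 normalized counts at 10 HAT, against 414710 and 401035 untreated (-6.07 ± 0.39, SE, limma adjusted p = 8.19e-08). Its second annotated transcript shares its reads and differed by -6.08. A further chlorophyll a/b binding transcript (Bs.00g020870.m01, chromosome 8) had 5491 and 8563, against 184997 and 234627 (-4.92 ± 0.35, adjusted p = 1.61e-07). Photosystem I subunit IV A had 1404 and 2714, against 81193 and 61351 (-5.18, adjusted p = 9.65e-07). PGR5, of cyclic electron flow, had 423 and 411, against 15359 and 11417 (-4.99, adjusted p = 1.42e-05).

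The fall was smaller for the other members. An ATP synthase transcript had 7491 and 8438 normalized counts at 10 HAT, against 70569 and 59396 untreated (-3.03, limma adjusted p = 9.53e-06). The photosystem II subunits Bs.00g059220.m01 and Bs.00g338570.m01 differed by -1.46 and -1.31 (adjusted p = 0.0119 and 0.0156). Both lost their calls without plant 2 (0.112 and 0.115), without the untreated library of plant 1 (0.152 and 0.191) and with the plant as a fixed block (0.103 and 0.106). Together the 8 transcripts summed to a mean of 0.0868 M normalized counts at 10 HAT, against 1.19 M untreated. Their high untreated level shows green tissue but does not tell leaf from other green tissue. The gene models carry no further marker names with which the tissue label could be checked.

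Chlorophyll synthesis and early light-induced proteins followed. Magnesium chelatase subunit H, of the first committed step of chlorophyll synthesis, had 9976 and 21989 normalized counts at 10 HAT, against 214648 and 298575 untreated (-4.10 ± 0.44, SE, limma adjusted p = 5.8e-06). Of the 3 ELIP1 transcripts, encoding proteins that bind chlorophyll under light stress, 2 were called lower. They had 325 and 21 at 10 HAT, against 4292 and 3025, for Bs.00g421070.m01, and 292 and 19, against 3268 and 2341, for Bs.00g420960.m01 (adjusted p = 0.00948 and 0.00997). The plants thus differed widely at 10 HAT, and the calls were lost without the 10 HAT library of plant 4 (differences -3.47 and -3.24, adjusted p = 0.161 and 0.171) or the untreated library of plant 1 (0.071 and 0.0731). The third, Bs.00g268300.m01, had 53 and 5, against 452 and 164 (adjusted p = 0.0602). It was called lower without plant 2 (0.0353), with 8 added (0.0302), with all libraries as labelled (0.0127) and with the plant as a fixed (0.0477) or random (0.0165) block.

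All 5 carbon and starch transcripts were lower, and their calls were kept in every alternative fit. The chloroplast glucose-6-phosphate translocator GPT2 (Bs.00g002550.m01, chromosome 8, 2695550 to 2697894) had 36 and 83 normalized counts at 10 HAT, against 4645 and 9151 untreated (-6.87 ± 1.09, SE, limma adjusted p = 0.000285). Granule-bound starch synthase 1, which makes amylose, had 693 and 594, against 17600 and 20046 (-4.87, adjusted p = 2.06e-05). Fructose-1,6-bisphosphatase, of sucrose and Calvin cycle metabolism, had 1534 and 1673, against 31679 and 34605 (-4.37, adjusted p = 3.19e-07). The kinase PPCK1-related, which activates phosphoenolpyruvate carboxylase, had 98 and 88, against 8059 and 4912 (-6.07, adjusted p = 1.5e-05), and a GAPDH-like transcript had 9 and 7, against 667 and 261 (-5.55, adjusted p = 1.36e-05).

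Of 8 cell wall transcripts, 3 were called higher and 3 lower. Of the 4 cellulose synthase transcripts, 3 were lower, of 2 loci. Bs.00g056700.m01 had 1504 and 1409 normalized counts at 10 HAT, against 4259 and 5621 untreated (-1.75, limma adjusted p = 0.0149), and Bs.00g015170.m01 had 427 and 183, against 1478 and 1820 (-2.55, adjusted p = 0.0109), with its second transcript at -2.54. Bs.00g056700.m01 lost its call without plant 2 (0.0597), without the 10 HAT (0.0758) or the untreated (0.0891) library of plant 4 and on the scale of equal totals (0.0652). Bs.00g015170.m01 lost its call without the 10 HAT (0.128) or the untreated (0.0614) library of plant 4, as did its second transcript (0.126 and 0.0643). The fourth, Bs.00g260720.m01, had 50 and 18, against 311 and 197 (adjusted p = 0.0686, and 0.0236 with all libraries as labelled, 0.046 with the plant as a fixed block and 0.0154 as a random one).

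Transcripts of pectin-modifying enzymes were low but higher at 10 HAT. All of those named here passed the count filter only through their 10 HAT libraries, so only a rise could be called for them. A pectinesterase had 33 and 46 normalized counts and a pectin lyase fold transcript (Bs.00g261820.m01) had 43 and 36, and both were listed at 0 in the untreated libraries (limma adjusted p = 0.00178 and 0.00381). The pectin lyase fold transcript Bs.00g142300.m01 had 21 and 42, against 2 and 0 (4.15, or 2.09 with 8 added, adjusted p = 0.00236). Both transcripts of a cyclin locus, of the cell cycle, were lower, with 3 and 5 at 10 HAT, against 112 and 304 untreated, for the first (-5.24, adjusted p = 0.00128). A chalcone/stilbene synthase (Bs.00g518390.m01), of the first step of flavonoid synthesis, had 208 and 22, against 1298 and 1363 (-4.26, adjusted p = 0.00182), and its difference was -2.67 without the 10 HAT library of plant 4 (0.0487). The other, Bs.00g518030.m01, had 27 and 6, against 43 and 54 (adjusted p = 0.29, and 0.0179 with the plant as a fixed block and 0.0499 as a random one). The gibberellin-regulated GASA transcript had 9555 and 3795, against 399 and 58 (5.29, adjusted p = 0.00432), with 0.0501 without plant 2 and 0.0688 without the untreated library of plant 4.

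Of 8 nitrogen transport transcripts, 2 were higher and 3 lower, and all 5 encode oligopeptide transporters. The 3 on chromosome 2 are near neighbours. Bs.00g435120.m01 and Bs.00g435130.m01 were higher, with 306 and 443 normalized counts at 10 HAT, against 39 and 24, for the first (3.55, limma adjusted p = 0.00849) and 179 and 244, against 7 and 25, for the second (3.86, adjusted p = 0.0111). Bs.00g435140.m01 was lower, with 22 and 27, against 451 and 672 (-4.44, adjusted p = 0.00141). On chromosome 3, Bs.00g195790.m01 had 77 and 19, against 825 and 498 (-4.02, adjusted p = 0.00188), and its neighbour Bs.00g195800.m01 had 60 and 22, against 958 and 423 (-4.09, adjusted p = 0.00469).

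Some of these calls rest on single libraries. Without the 10 HAT library of plant 4 the limma adjusted p was 0.0637 for Bs.00g435120.m01, 0.0714 for Bs.00g435130.m01 and 0.0634 for Bs.00g195800.m01. Without the untreated library of plant 1 it was 0.141 for Bs.00g435130.m01 and 0.0675 for Bs.00g195800.m01, and without that of plant 4 it was 0.0597 for Bs.00g435120.m01. With the plant as a fixed block, Bs.00g435130.m01 had 0.0536. The amino acid transporters were not called at 10 HAT.

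Cytochrome P450s, glycosyltransferases and ABC transporters include enzymes and carriers of xenobiotics. Of 14 cytochrome P450 transcripts tested, 3 were higher and 5 lower (median -0.85). CYP734A1, which inactivates brassinosteroids, had 1433 and 1112 normalized counts at 10 HAT, against 260 and 248 untreated (2.31, limma adjusted p = 0.00671, and 0.0547 without plant 2 and 0.105 with the plant as a fixed block). The CYP90A1 transcripts, whose enzyme acts in brassinosteroid synthesis, were lower. Bs.00g205780.m01 had 38 and 74, against 1993 and 2638 (-5.41 ± 0.43, SE, adjusted p = 3.17e-07), and Bs.00g205800.m01 had 35 and 49, against 1806 and 1812 (-5.41 ± 0.52, adjusted p = 1.73e-06).

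CYP90C1/D1, which also acts in brassinosteroid synthesis, had 555 and 343 normalized counts at 10 HAT, against 192 and 157 untreated (1.32, limma adjusted p = 0.031). Its call was lost without plant 2 (0.232), without the untreated library of plant 1 (0.0856) or 4 (0.135) and with the plant as a fixed block (0.0778). CYP71D10-like had 334 and 163, against 12 and 4 (4.86, adjusted p = 0.00159, and 0.0704 with the plant as a fixed block). The unclassified cytochrome P450 Bs.00g206320.m01 had 134 and 635, against 22306 and 19628 (-6.16, adjusted p = 0.00194). The list thus held brassinosteroid synthesis transcripts in both directions.

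CYP77A4-related and CYP86A7 had log2 differences of -1.72 and -2.08 (limma adjusted p = 0.0254 and 0.0135). CYP77A4-related lost its call on the scale of equal totals (0.0956), without the 10 HAT library of plant 4 (0.178) and without the untreated library of plant 1 (0.127) or 4 (0.0749). CYP86A7 lost its call without plant 2 (0.0781), without the 10 HAT library of plant 4 (0.0501) and without the untreated library of plant 1 (0.0888). CYP82D47-like had 18 and 0 at 10 HAT, against 89 and 33, and was called only without plant 2 (0.0452) or with the plant as a block (0.000886 as a fixed term, 0.0129 as a random effect). CYP81B2 had 84 and 9, against 23 and 0, and was called only without the untreated library of plant 1 (0.0186).

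No glycosyltransferase was higher, and the UDP-glycosyltransferase Bs.00g396960.m01 was the only one lower, with 19 and 57 normalized counts at 10 HAT, against 120 and 116 untreated (-1.80, limma adjusted p = 0.0421). That call was lost without plant 2 (-1.04, adjusted p = 0.369), without the untreated library of plant 1 (0.166) or 4 (0.112), with the plant as a fixed block (0.202), on the scale of equal totals (0.0766) and with no filter (0.0619). Of 5 ABC transporter transcripts tested, Bs.00g282300.m01 was the only one called, with 175 and 42, against 1 and 2 (5.15, or 3.33 with 8 added, adjusted p = 0.0129). The paper names it ABCB28 in its text but lists it under class G elsewhere, so its class is uncertain. It lost its call without plant 2 (0.125), without the untreated library of plant 1 (0.0888) and with the plant as a fixed block (0.102). UGT87A1, with 3294 and 11823, against 1038 and 4394, and ABCG29-like, with 203 and 1027, against 237 and 709, differed more between plants than between time points.

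Among described transcripts outside these lists, the largest fall was that of a PLC-like phosphodiesterase (Bs.00g480400.m01, chromosome 6, 6129607 to 6132054), with 0 and 16 normalized counts at 10 HAT, against 896 and 662 untreated (-7.55, limma adjusted p = 6.8e-05). A purine and uridine phosphorylase had 198 and 266, against 31950 and 30151 (-7.07, adjusted p = 0.00428). An S-adenosylmethionine-dependent methyltransferase (Bs.00g383340.m01) had 710 and 690, against 81596 and 43486 (-6.41, adjusted p = 0.00012), and thiamine thiazole synthase, of vitamin B1 synthesis, averaged 873 normalized counts at 10 HAT, against 61096.5 untreated (-6.14 ± 0.49, SE, adjusted p = 3.17e-07). A tetratricopeptide-like transcript (Bs.00g253530.m01) had 48 and 49, against 3268 and 3492 (-6.09 ± 0.45, adjusted p = 2.03e-07).

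Without a description, Bs.00g518090.m01 fell to 13 and 14 normalized counts at 10 HAT, against 4566 and 711 untreated (-6.96, limma adjusted p = 0.00442), and Bs.00g206760.m01 to 146 and 1132, against 29715 and 23797 (-6.03, adjusted p = 0.00931). The first lost its call without the untreated library of plant 1 (0.0765) and with all libraries used as labelled (0.0662). The second lost its call without plant 2 (0.118) and without the untreated library of plant 1 (0.0644).

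The J01-S libraries at 3 HAT share the untreated libraries with those at 10 HAT, so the times are set side by side only. At 3 HAT, 5.48% of the transcripts were called higher and 4.86% lower than in untreated J01-S. GH3.2 had 463 and 95 normalized counts untreated, 15452 and 36928 at 3 HAT and 43818 and 45578 at 10 HAT. IAA15 had 1968 and 1230 untreated, 26211 and 22146 at 3 HAT and 19370 and 21707 at 10 HAT. The NAC10-related factor had 496 and 264 untreated, 549 and 950 at 3 HAT and 9732 and 8135 at 10 HAT. Of these, the NAC10-related factor was the one not called at 3 HAT (limma adjusted p = 0.317).

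Several list members were called at 3 HAT and not at 10 HAT. WRKY46-related had 285 and 371 normalized counts untreated, 42710 and 19878 at 3 HAT and 293 and 388 at 10 HAT, with log2 differences from untreated of 6.48 (limma adjusted p = 0.0033) and 0.05 (adjusted p = 0.989). A glycoside hydrolase of family 16 had 156 and 189 untreated, 60260 and 21483 at 3 HAT and 518 and 295 at 10 HAT (adjusted p = 0.6 at 10 HAT). The amino acid transporter Bs.00g315820.m01 had 146 and 500 untreated, 17057 and 10800 at 3 HAT and 258 and 384 at 10 HAT (adjusted p = 0.903). The gibberellin-inactivating GA2ox4 had 20 and 29 untreated, 2140 and 1116 at 3 HAT and 48 and 42 at 10 HAT (adjusted p = 0.649).

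A transcript with a MACPF domain had 869 and 1089 normalized counts untreated, 41069 and 17630 at 3 HAT and 2114 and 2512 at 10 HAT (limma adjusted p = 0.142, and 0.0328 on the scale of equal totals). The jasmonate repressor TIFY11A had 127 and 73 untreated, 6475 and 24230 at 3 HAT and 661 and 973 at 10 HAT (adjusted p = 0.16, and 0.0465 with only the groups compared). The protein phosphatase 2C Bs.00g036810.m01 had 681 and 662 untreated, 22893 and 9398 at 3 HAT and 1644 and 1718 at 10 HAT (adjusted p = 0.1). It was called higher at 10 HAT on the scale of equal totals (0.023), with only the groups compared (0.0479), with all libraries as labelled (0.0457) and with the plant as a random effect (0.0374). At 10 HAT each of these 7 was below its level at 3 HAT in both libraries.

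**Figure D5:**
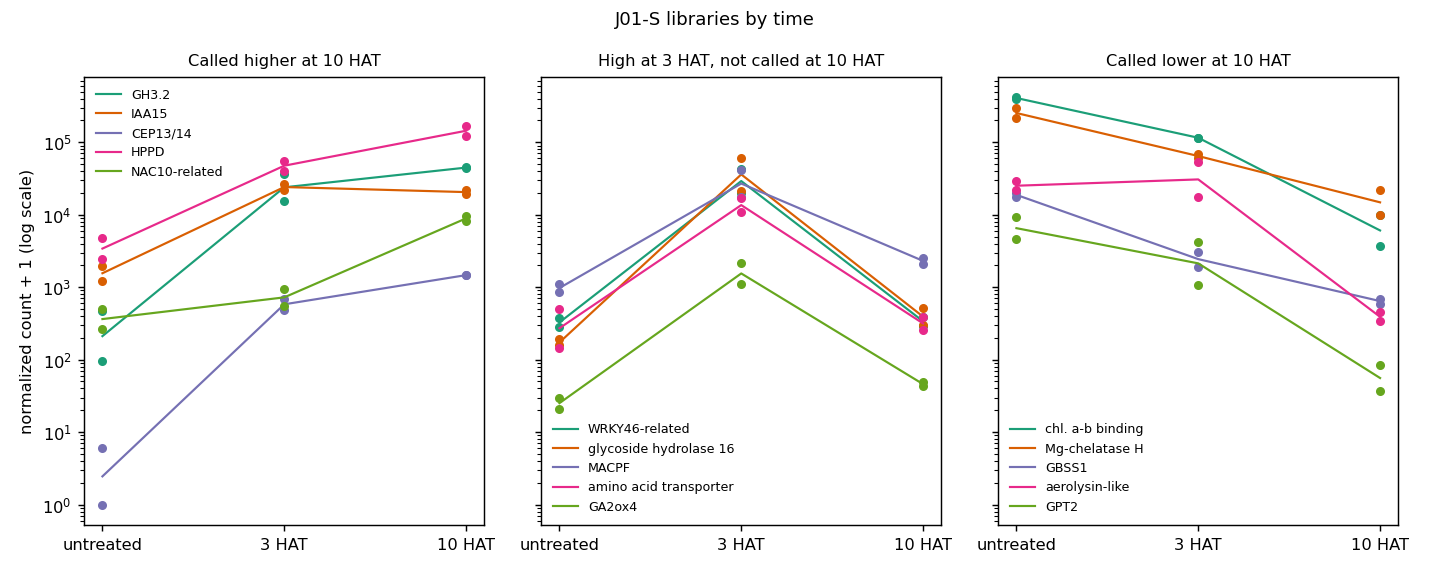
Normalized counts + 1, on a log scale, of 15 named transcripts in the J01-S libraries by time, with 1 point per library and lines through the geometric means. In the left panel GH3.2 reaches 43818 and 45578 at 10 HAT, in the middle panel WRKY46-related is at 42710 and 19878 at 3 HAT and at 293 and 388 at 10 HAT, and in the right panel GBSS1 is at 1919 and 3096 at 3 HAT and at 693 and 594 at 10 HAT.

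The other lines have their own untreated libraries. On the same 24905 transcripts, 11% were called higher and 12.6% lower at 10 HAT in 9425, and 8.79% higher and 12.2% lower in Flur-R. Of the 1691 transcripts higher in J01-S, 1251 were also called higher in 9425, which is 74.0% of the J01-S calls and 45.5% of the 9425 calls. In Flur-R 1081 were also higher, which is 63.9% of the J01-S calls and 49.4% of the Flur-R calls. Of the 2361 lower in J01-S, 1858 were lower in 9425 (78.7% and 59.3% of the calls of each) and 1847 in Flur-R (78.2% and 60.7%). Called in neither of the other lines in any direction were 277 of the higher and 257 of the lower transcripts, and this is a count of calls with no test of a difference between lines. Called in the opposite direction were 2 of the lower transcripts in 9425 and 1 in Flur-R.

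GH3.2 had a log2 difference from untreated of 7.73 in J01-S, 9.09 in 9425 and 8.71 in Flur-R, and was called in each. The chlorophyll a-b binding transcript Bs.00g240870.m01 had -6.07 in J01-S, -6.55 in 9425 and -6.80 in Flur-R. HPPD had 5.40, 4.59 and 4.88 in these lines. The light reaction and the carbon and starch lists were called lower in every tested member in all 3 lines, and the amino acid breakdown and the clock and light lists higher. The pectinesterase had 5.91 in 9425, where it was called, and 0.34 in Flur-R, where it was not, beside its rise in J01-S. Its response was not called as different between J01-S and Flur-R in the direct test of the main fit.

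The difference of the responses was tested for every transcript. In J01-S minus 9425, 3 transcripts were past the threshold (0.012% of those tested), and in J01-S minus Flur-R, 1 was (0.00402%), all on chromosome 3. Transcripts entered the test through their level in J01-S alone, so those present only in another line could not be tested, and the common direction of these calls is set by that filter. CYP90A1 (Bs.00g205780.m01 and Bs.00g205800.m01) was listed at 0 in all 9425 libraries used and so could not fall there. In Flur-R both were lower at 10 HAT, with log2 differences of -5.42 and -5.21. The undescribed Bs.00g206420.m01 (chromosome 3, 37313718 to 37320646) had 1 and 2 normalized counts at 10 HAT in J01-S, against 74 and 76 untreated, and was listed at 0 in every library of 9425 and Flur-R. In each case the difference of responses only restates the fall in J01-S, since no response could be measured in the other line, and it shows no difference between the responses of the lines. Without the line-parting transcripts, neither comparison had a call. The 3 called transcripts are line-parting themselves, so their removal was fixed in advance and this result tests nothing about them.

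Without the 10 HAT library of plant 4, which leaves only plant 2 for J01-S, the differences called numbered 185 against 9425 and 157 against Flur-R. Plant 2 is the J01-S library with 29.6% of line-parting transcripts on the 9425 side. With only the groups compared in the fit, no transcript was called in either comparison.

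The libraries of 1 plant resembled each other beyond time. Across the transcripts tested, which are not independent replicates, the library of plant 4 at 10 HAT correlated with untreated plant 4 at 0.910 (Pearson's r of log2 values) and with plant 2 at 10 HAT at 0.864. The untreated libraries of plants 1 and 4 correlated at 0.877. Plant 2 at 10 HAT correlated with untreated plant 1 at 0.861. The only pair from 1 plant at both times was thus closer than either pair of different plants at the same time. Of the calls at 10 HAT, 1164 of those higher and 1799 of those lower were called again with the plant as a fixed block, which rests on plant 4 in this contrast.

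Calls were spread over the genome. On the chromosomes 1 to 9 of assembly version 2, 6.08 to 7.39% of the transcripts tested were called higher and 8.42 to 10.8% lower. The median coding length was 1206 bases for transcripts called higher, 1014 for those called lower and 975 over all tested, and single-exon transcripts made up 8.57%, 10.4% and 10.5%. Of the 1589 loci called higher, 223 were followed on the chromosome by another tested locus called higher, while 6.88% of all loci tested were called higher. Of the 2241 loci called lower, 355 (15.8%) were followed by another called lower, while 9.70% of all loci were called lower. Neighbouring duplicates can share reads, and their part in these values was not tested.

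The lipoxygenase stretch on chromosome 4 is one such run, as are 4 loci on chromosome 9 (5190880 to 5222335) that end in both ABCG40 transporters and 4 loci on chromosome 6 (82231069 to 82293141) that begin with BBX26. Among the runs called lower, 5 loci on chromosome 3 (101458689 to 101479146) end in PGR5. These runs were chosen for their described members after their values were seen.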

How the data were processed

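The deposited values are a score: transcript counts that the authors normalized with DESeq and rounded, so read numbers cannot be recovered and no count model was used. Alignment, by the authors, was to coding sequences of kochia assembly version 2 with HISAT2 (2.1.0 in the submitters' notes). Their DESeq2 1.28.1 results were not used here.

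For each transcript, limma 3.58.1 (R 4.3.3, trended variance) fitted a mean for every line and time to log2(normalized count + 1) over 25 libraries. The 2 libraries at 10 HAT whose line-parting transcripts go against their label were left out. Transcripts with 10 or more in at least 2 of the 4 J01-S libraries were tested. The procedure was also run on simulated data with independent libraries. These lack the correlation within a plant, so they cannot show the error rate in the present libraries. Gene models gave chromosome, exons and coding length, and descriptions came from tables of the study.

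Named transcripts were members of role lists, the 10 largest called differences per direction among described transcripts (mean of 50 or more on the higher side), 2 undescribed ones per direction, and differences called between lines. The comparison, the lists and this rule were chosen with earlier results of these data known.

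Libraries with the same line and number were taken to come from 1 plant, as tissue was taken from each plant before and after spraying. The labels give only the number. Number 3 of 9425 goes against this reading, with 98.2% and 97.1% of line-parting transcripts on the 9425 side untreated and at 3 HAT, and 39.3% at 10 HAT. In J01-S, deviations from group means correlated across transcripts with a median of 0.670 for 4 pairs of the same plant, and of -0.547 for other pairs. With 2 libraries per group, the deviations within a group mirror each other. The pair of untreated and 3 HAT libraries therefore gives the same value for plants 1 and 4. Neither the pairs of the same plant nor the other pairs are all separate evidence. Alternatives were 0.5 or 8 added, no filter, a filter at 50, equal totals, median ratio scaling, only the groups compared, all 27 libraries, the plant as a fixed or random block, sums by locus, overlap allowed and each library left out. Leaving out line-parting transcripts was chosen after seeing the data.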

Additional observations from a re-analysis of the deposited data

Results flagged for a closer look

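The value for J01-S minus 9425 of the log2 difference at 10 HAT was -5.41 for both CYP90A1 transcripts, Bs.00g205780.m01 and Bs.00g205800.m01. It was -4.96 for the undescribed Bs.00g206420.m01, both against 9425 and against Flur-R. All 3 transcripts were listed at 0 in the untreated and treated 9425 libraries used, and Bs.00g206420.m01 also in all of Flur-R. No response could be measured there, so these values only restate the fall in J01-S and show no difference between the responses of the lines. The left-out 9425 library of plant 3 at 10 HAT had 43 and 32 normalized counts of the CYP90A1 transcripts, and the left-out J01-S library of plant 3 at 10 HAT had 1 and 0.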

How the results depend on the processing

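The main counts were 1691 higher and 2361 lower transcripts. Equal totals gave 4011 higher and 1404 lower, and only the groups compared gave 335 and 694. With the plant as a replicate block, a fixed term gave 1708 and 2364 and a random effect gave 2663 and 3360. Leaving out each library in turn gave 794 to 1457 higher and 1252 to 1725 lower, and the higher count moved by more than 1.5 times without untreated plant 1 (794) or the 10 HAT library of plant 2 (989) or 4 (888). For the difference of responses from 9425 (3 called) and from Flur-R (1 called), the counts were 8 and 2 with 8 added, 31 and 36 with no filter, 2 and 0 with a filter at 50, 3 and 2 with equal totals, 0 and 0 with only the groups compared or without line-parting transcripts, 1 and 3 with all 27 libraries, and 9 and 4 with the plant as a random block. They were 3 to 185 and 1 to 157 when each library was left out, with the highest counts without the 10 HAT library of plant 4. The 3 transcripts called in the main fit are line-parting themselves, so leaving out the line-parting transcripts removed them by construction. The causes of the other moves were not tested. No named transcript changed its sign with its call. Of the named transcripts called, 37 lost the call with only the groups compared, which leaves fewer libraries to estimate the spread, and 12 with the plant as a fixed block. The random block ended no call. Values near 0 limit the size of large differences, and 2 libraries per group limit all of them.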
